A study of Caenorhabditis elegans with 18 samples.

Results

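The genes described here are nuclear genes of the mitochondrial respiratory chain of Caenorhabditis elegans, chosen as those whose symbol begins with nuo-, nduf-, sdha-, sdhb-, sdhd-, mev-, ucr-, isp-, cyc-, cox- or atp- followed by a number in the RefSeq annotation of WBcel235. The rule finds 46 genes, of which 40 have a row among the 39798 genes of the table matched to a name, and it uses no measured value. All 40 passed the filter on low counts. They comprise 11 genes of complex I, 5 of complex II, 6 of complex III, 1 cytochrome c gene, 7 of complex IV, 4 of complex V and 6 genes, cox-10 to cox-19, whose products assemble complex IV rather than belong to it. The genes nuo-3, ucr-11, cyc-2.1, atp-4, cox-14 and cox-16 were not analysed here, nor were 12 mitochondrially encoded subunits. Roles are given by homology with the mammalian and yeast proteins.

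The respiratory chain of mitochondria moves electrons from NADH and succinate to oxygen and uses the energy to make ATP. Complex I takes electrons from NADH, complex II takes them from succinate, complex III passes them to the small carrier cytochrome c, complex IV hands them to oxygen, and complex V is the ATP synthase. Most of the subunits are encoded in the nucleus and the rest in the mitochondrial genome. In the worm, mutants of several of these genes, among them isp-1, nuo-6 and mev-1, have altered lifespan or resistance to oxidative stress.

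RNA from whole day 1 adults was sequenced, with no separation of tissues. The strains were RB711, carrying pqm-1(ok485), CF1038, carrying daf-16(mu86), and the wild type N2 Bristol. The mutated genes encode transcription factors of stress and insulin signalling, and the series asks how PQM-1 acts in stress resilience through DAF-16. Heated worms of each strain spent 1 h at 35 °C and recovered for 2 h at 20 °C, and the unheated worms of each strain are labelled 20 °C. The labels give 3 replicates in each of the 6 groups, 18 samples, which the design text calls biological. The comparisons rest on the 12 libraries named replicate 2 and 3, which makes 2 per group.

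The first value column carries a sample name, daf-16 20 °C replicate 1, but holds transcript lengths, so the header may stand displaced by 1 column, and the 5 other columns named replicate 1 were not used. As a sign of heat, the transcript of hsp-16.2 was at 324.3 CPM in the column named pqm-1 20 °C replicate 1 and at 208.7 CPM in that named N2 20 °C replicate 1, and at most 0.417 CPM in the 3 columns named 35 °C replicate 1. In the libraries used it was at 263.4 CPM or more after heat and at 0.42 CPM or less at 20 °C. Totals over genes ranged from 18650312 to 33399358 counts. The pqm-1 transcript was at 9.92 to 12.6 normalised CPM in pqm-1 worms, against 24.1 to 26.1 in N2 worms at 20 °C (log2 fold change -1.16 ± 0.19 (SE), edgeR adjusted p 0.0585). After heat it was at 19.2 to 21.5 normalised CPM in pqm-1 worms, against 32.4 to 33.0 in N2 worms (log2 fold change -0.69 ± 0.17 (SE), adjusted p 0.18), so it was not called at either temperature. The daf-16 count of daf-16 worms was not called against N2 (log2 fold change -0.19 after heat, adjusted p 0.377, and 0.14 at 20 °C, adjusted p 0.509). In bulk RNA of whole worms, fewer cells of a type and less RNA per cell cannot be told apart.

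Transcript levels are given as normalised CPM, counts scaled by library size and TMM factors, and levels of different genes are compared per kb of the deposited transcript length. By that measure atp-2 and atp-1, the catalytic beta and the alpha subunit of ATP synthase, stood highest, with means over the 12 libraries of 2068 and 1765 normalised CPM per kb. Genes of complex IV ranged from 694 per kb for cox-6C to 1482 per kb for cox-6B. In complex III the highest was isp-1, the Rieske iron-sulphur protein, at 611 per kb, in complex II sdhd-1, a membrane anchor, at 356 per kb, and in complex I nuo-1, the NADH-binding flavoprotein, at 343 per kb. The cytochrome c gene cyc-2.2 was at 166 per kb. The assembly genes were lowest, from 15.1 per kb for cox-10 to 82.0 per kb for cox-15. Neighbours in this order often overlapped in their libraries, as nuo-1 and nuo-6 (335 per kb) did.

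**Figure D1:**
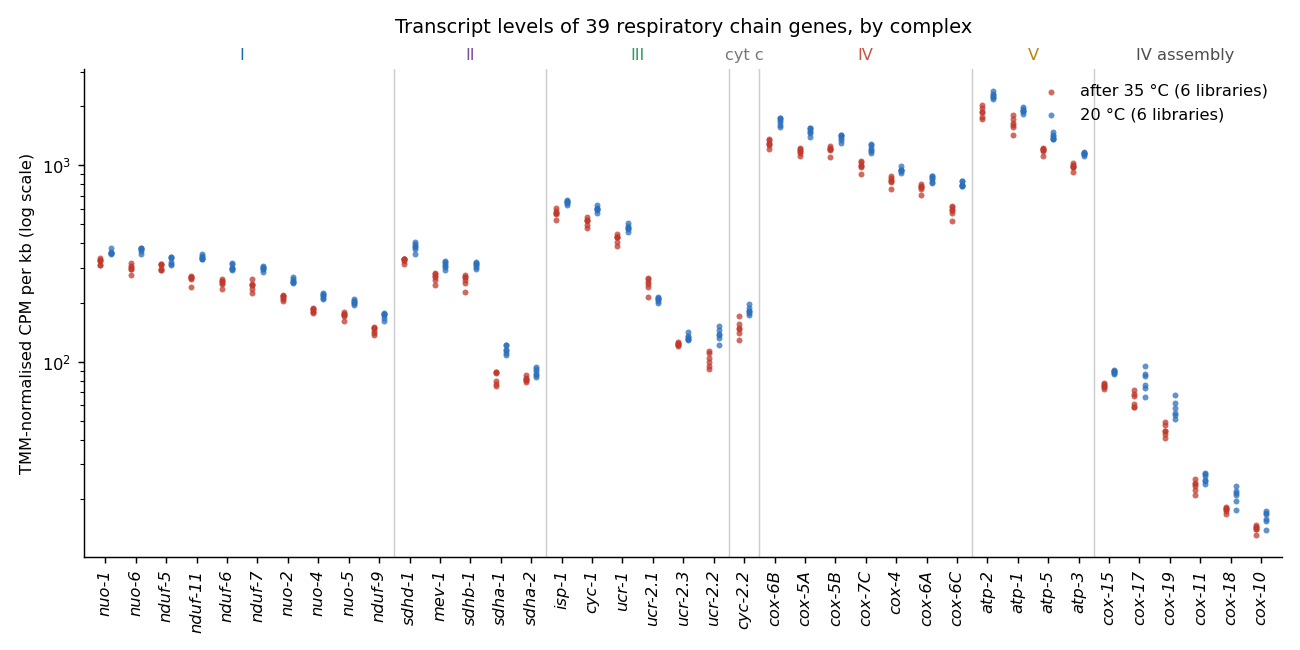
Normalised CPM per kb (vertical log axis) of 39 of the 40 genes (1 is not shown), grouped by complex and ordered by level within it. Each point is a library, with the 6 heated libraries (red, left) beside the 6 libraries at 20 °C (blue, right). The genes of complexes V and IV stand highest and the complex IV assembly genes lowest, and for most genes the red points lie below the blue ones.

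After heat most respiratory chain transcripts were lower in every strain, by modest amounts. Of the 40 genes, 22 fell in pqm-1 worms, 19 in daf-16 worms and 26 in N2 worms, and 1 gene, ucr-2.1, rose in daf-16 worms (edgeR's quasi-likelihood test, Benjamini-Hochberg adjusted p under 0.05 over 14278 genes). Over all genes tested, 12.6% were called lower with heat in pqm-1, 16.6% in daf-16 and 17.9% in N2, and 12.5%, 16.5% and 16.8% were called higher. The median log2 fold change of the 40 genes was -0.24 in pqm-1, -0.21 in daf-16 and -0.27 in N2, which is 15.3%, 13.3% and 16.9% lower, while the medians of all genes tested were 0.01, 0.03 and 0.02. In each strain 39 of the 40 estimates were below 0, the exception being ucr-2.1. Both heated libraries lay below both 20 °C libraries for 35 genes in pqm-1, 38 in daf-16 and 38 in N2, and the same held for 33.2%, 30.9% and 33.3% of all genes.

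Summed over the 40 genes, the level was 14939 to 15339 normalised CPM in heated pqm-1 worms, 15546 to 16131 in heated daf-16 worms and 14032 to 15394 in heated N2 worms. At 20 °C it was 17839 to 17935 in pqm-1 worms, 18041 to 18487 in daf-16 worms and 17590 to 17913 in N2 worms. The heated and unheated libraries did not overlap in any strain, and the sum fell by 15.4% in pqm-1, 13.3% in daf-16 and 17.1% in N2 (means of 2 libraries). The alpha and beta subunits of ATP synthase made up the largest portion of that sum, with 5541, 6081 and 5353 normalised CPM in heated pqm-1, daf-16 and N2 worms and 6738, 6910 and 6562 at 20 °C in the same order of strains.

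Of the 40 genes, 17 were called lower in all 3 strains, 5 in exactly 2, 6 in exactly 1, and 11 were called in none. The share called lower in all 3 strains among all genes tested was 8.76%. Over the fits that left out 1 library each, the count of 17 ran from 5, without pqm-1 35 °C replicate 2 or 3 or pqm-1 20 °C replicate 2, to 20, without N2 35 °C replicate 3. It was 7 without pqm-1 20 °C replicate 3, daf-16 35 °C replicate 3 or daf-16 20 °C replicate 3, 9 without N2 35 °C replicate 2 and 11 without either remaining daf-16 library. The number of calls depended on single libraries, although the direction of most estimates did not. In pqm-1 the count of genes called was 6 without the 35 °C replicate 2 library, 5 without 35 °C replicate 3, 6 without 20 °C replicate 2 and 9 without 20 °C replicate 3. In daf-16 it was 12 without 35 °C replicate 2, 9 without 35 °C replicate 3 and 8 without 20 °C replicate 3, and in N2 it was 10 without 35 °C replicate 2, 17 without 20 °C replicate 2 and 15 without 20 °C replicate 3. Without any single library at least 38 of the 40 estimates stayed below 0, and 21 of the 68 calls passed the threshold without each library in turn. Of the 17 genes called in all 3 strains, 3 kept each call in this way: cox-6C, nduf-11 and ucr-2.2. With all count columns taken by their header names, replicate 1 included, edgeR called 0 of the 40 genes in each strain (0, 0 and 2 at an unadjusted p under 0.05 in pqm-1, daf-16 and N2), and also 0 of all 14462 genes then tested. That fit puts columns with and without the hsp-16.2 signal of heat into the same groups, so its 0 calls cannot decide on a heat effect. Scaling to library size alone gave 13 genes lower in pqm-1, 20 in daf-16 and 17 in N2. That scaling moved the share of higher calls among all genes called with heat to 61.1% in pqm-1, 52.0% in daf-16 and 61.8% in N2, against 49.8%, 49.96% and 48.5% with TMM factors.

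**Figure D2:**
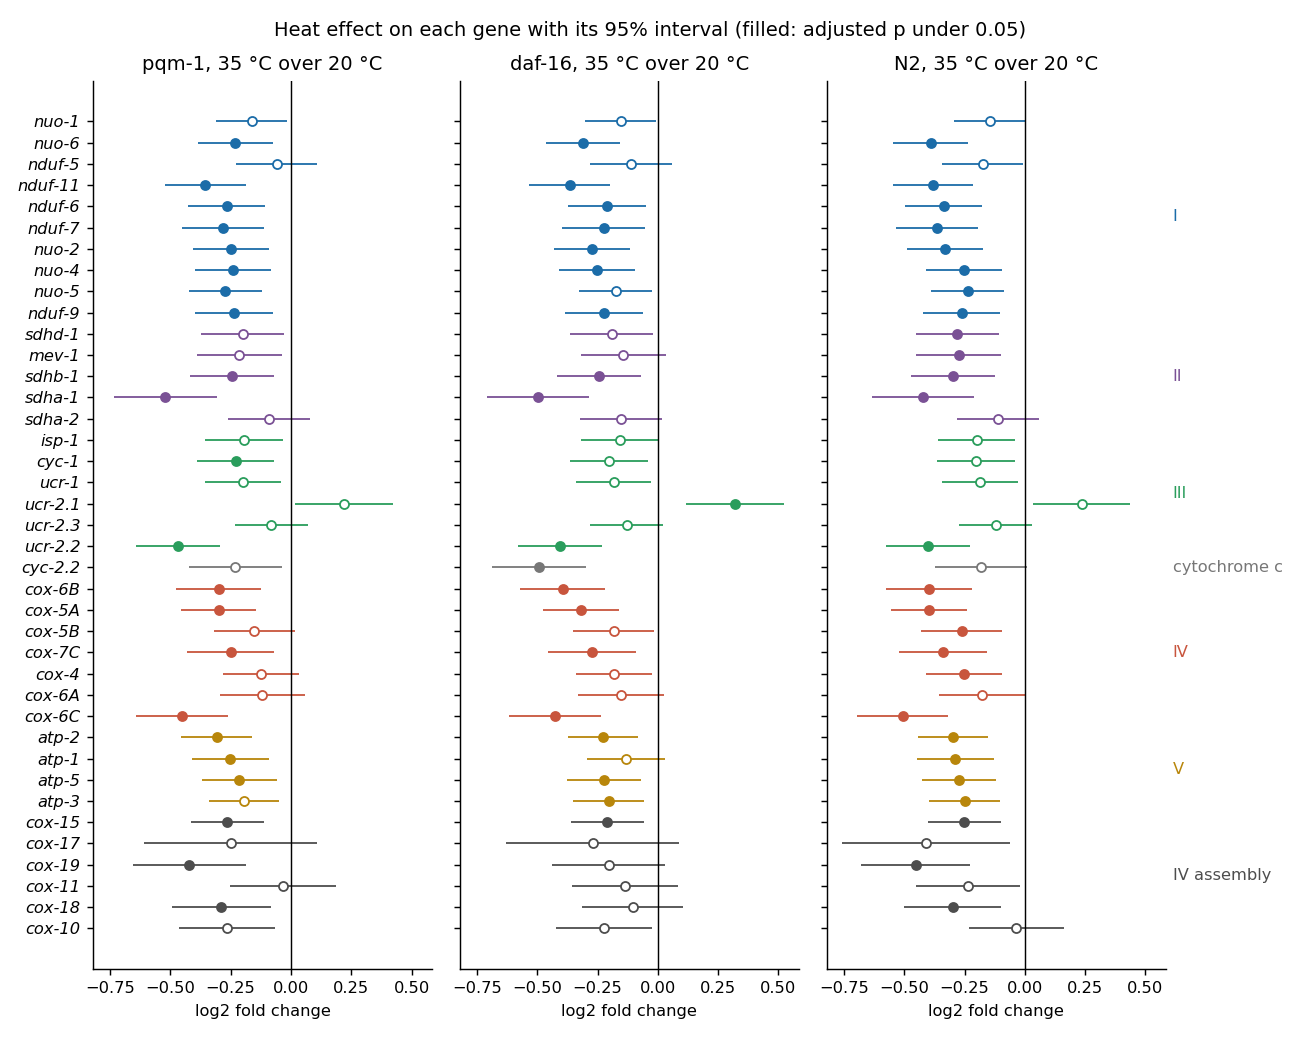
Log2 fold change with heat (horizontal axis, 35 °C over 20 °C) for 39 of the 40 genes (1 is not shown) in pqm-1, daf-16 and N2 (2 libraries per group). Bars are 95% intervals derived from the edgeR test statistic, filled points have an adjusted p under 0.05, and colours mark the complex. All points drawn but ucr-2.1 lie left of 0 in each strain.

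In complex I, the entry point for electrons from NADH, 8 of 11 genes fell in pqm-1, 7 in daf-16 and 8 in N2. The medians of the 11 log2 fold changes were -0.24, -0.22 and -0.26 in these strains. Among the genes that fell in all 3 strains was nduf-11, homologous to the mammalian accessory subunit NDUFA11. nduf-11 had 266 and 263 normalised CPM in heated pqm-1 worms, 265 and 259.9 in heated daf-16 worms and 237 and 269 in heated N2 worms, against 341 and 335 in pqm-1 worms, 327 and 349 in daf-16 worms and 329.5 and 330.2 in N2 worms at 20 °C. All heated libraries lay below all libraries at 20 °C. Its log2 fold change was -0.36 ± 0.08 in pqm-1, -0.37 ± 0.08 in daf-16 and -0.38 ± 0.08 in N2 (SE, edgeR adjusted p 0.00508, 0.00329 and 0.0026). Its counts were fractional in 6 libraries, as when reads are divided among transcripts.

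The accessory subunit gene nuo-6, homologous to NDUFB4, also fell in all 3 strains. Heated worms had 165 and 153 normalised CPM of nuo-6 in pqm-1 worms, 159 and 157 in daf-16 worms and 144 and 154 in N2, against 189.9 and 183, 196 and 196 and 196 and 195 in the same strains at 20 °C. The log2 fold change was -0.23 in pqm-1, -0.31 in daf-16 and -0.39 in N2, with adjusted p 0.0326, 0.00551 and 0.00139 (edgeR). The call in pqm-1 was lost without any 1 of the 4 pqm-1 libraries. For nuo-2, the heated libraries held 169.8 and 177 normalised CPM in pqm-1 worms, 174 and 168 in daf-16 worms and 164 and 175 in N2, and the 20 °C libraries 205 and 207 in pqm-1 worms, 202 and 212 in daf-16 worms and 207 and 219 in N2. This gene encodes the homologue of NDUFS3, a subunit of the arm that carries electrons. Its log2 fold change was -0.25 in pqm-1, -0.27 in daf-16 and -0.33 in N2.

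Further genes of that arm are nduf-6 and nduf-7, homologous to NDUFS6 and NDUFS7. nduf-6 had 105 and 108 normalised CPM in heated pqm-1 worms, 111 and 109 in heated daf-16 worms and 99.8 and 106 in heated N2 worms, against 133 and 124 in pqm-1 worms, 127 and 127 in daf-16 worms and 134 and 126 in N2 worms at 20 °C. Heated worms had 149.6 and 140.3 normalised CPM of nduf-7 in pqm-1 worms, 158 and 148 in daf-16 worms and 134 and 147 in N2, against 182 and 171, 179 and 179 and 177 and 185 in the same strains at 20 °C. The heated libraries lay below those at 20 °C within each strain for both. The log2 fold change of nduf-6 was -0.27 in pqm-1, -0.21 in daf-16 and -0.34 in N2, and that of nduf-7 was -0.28 in pqm-1, -0.23 in daf-16 and -0.36 in N2. Exons of nduf-6 overlap those of prpf-4 on the other strand over 10.4% of its length, and the table gives no strand.

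The accessory subunits nuo-4 and nduf-9, homologous to NDUFA10 and NDUFA9, fell by similar amounts. For nuo-4, the heated libraries held 245 and 232 normalised CPM in pqm-1 worms, 244 and 237 in daf-16 worms and 234 and 243 in N2, and the 20 °C libraries 276 and 287 in pqm-1 worms, 282 and 290.3 in daf-16 worms and 274 and 294 in N2. nduf-9 had 193 and 182 normalised CPM in heated pqm-1 worms, 195 and 193 in heated daf-16 worms and 177 and 186 in heated N2 worms, against 215 and 227 in pqm-1 worms, 223 and 229 in daf-16 worms and 209 and 227 in N2 worms at 20 °C. Their log2 fold changes lay between -0.26 and -0.22 in the 3 strains. The large iron-sulphur subunit gene nuo-5 (NDUFS1 in mammals) was called lower in pqm-1 and N2, with log2 fold changes of -0.27 in pqm-1, -0.18 in daf-16 and -0.24 in N2.

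For nuo-1, which had the highest level per kb in this complex, no call was made. Heated worms had 472 and 448 normalised CPM of nuo-1 in pqm-1 worms, 488 and 469.7 in daf-16 worms and 450.1 and 475 in N2, against 514 and 516, 521 and 545 and 513 and 511 in the same strains at 20 °C. All heated libraries lay below all libraries at 20 °C, and the log2 fold change was -0.16 in pqm-1, -0.15 in daf-16 and -0.15 in N2 (adjusted p 0.102, 0.102 and 0.117). The accessory subunit gene nduf-5 (NDUFS5) was not called either. Its log2 fold change was -0.06 in pqm-1, -0.11 in daf-16 and -0.18 in N2, and the levels were 107 to 114.5 normalised CPM in the heated libraries and 113.5 to 125.5 at 20 °C. Under scaling to library size alone its estimate in pqm-1 was 0.0047.

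Complex II, succinate dehydrogenase, is the link between the tricarboxylic acid cycle and the chain. Of its 5 genes, 2 fell in pqm-1, 2 in daf-16 and 4 in N2. The gene sdha-1 encodes the flavoprotein that holds the catalytic site. sdha-1 had 170.5 and 149 normalised CPM in heated pqm-1 worms, 171 and 155 in heated daf-16 worms and 146 and 172 in heated N2 worms, against 222 and 237 in pqm-1 worms, 237 and 224 in daf-16 worms and 209.8 and 216 in N2 worms at 20 °C. Its log2 fold change was -0.52 ± 0.10 in pqm-1, -0.50 ± 0.10 in daf-16 and -0.42 ± 0.10 in N2 (SE, adjusted p 0.00213, 0.00215 and 0.00582). In pqm-1 and in daf-16 this was the largest fall of the 40 genes. Without the N2 35 °C replicate 2 library the estimate in N2 was -0.30 and lost the threshold.

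The paralogue sdha-2 also encodes a flavoprotein, and it was called in no strain. Heated worms had 164 and 156 normalised CPM of sdha-2 in pqm-1 worms, 152 and 154 in daf-16 worms and 158 and 155 in N2, against 161 and 180.2, 164 and 177 and 172 and 166 in the same strains at 20 °C. In pqm-1 the heated and unheated libraries overlapped. The log2 fold change was -0.09 in pqm-1, -0.15 in daf-16 and -0.11 in N2.

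The share of each gene in the flavoprotein transcripts was then taken within each library, as CPM per kb, a quantity that scaling does not affect. Tests of such shares were not among those planned. They draw on the same libraries as the fits above, so they are no independent support for those calls. Averaged over strains, sdha-1 made up 50.3% after heat, against 56.6% at 20 °C, a difference of -6.29 percentage points. By strain, the heated libraries were at 48.6 and 50.7% in pqm-1 worms, 49.9 and 52.7% in daf-16 worms and 47.8 and 52.4% in N2, and the 20 °C libraries at 56.5 and 57.7%, 55.6 and 58.9%, and 54.7 and 56.3% in the same strains. No heated library reached any library at 20 °C. An exact two-sided permutation test that exchanged the temperature labels within strains gave p 0.00926, the smallest that its 216 arrangements can give (Benjamini-Hochberg adjusted p 0.0116 over 5 shares, which are not independent since those of a subunit sum to the whole). Leaving out each library in turn gave differences between -7.06 and -5.52 points.

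The iron-sulphur subunit gene sdhb-1 fell in all 3 strains. For sdhb-1, the heated libraries held 241 and 242 normalised CPM in pqm-1 worms, 248 and 225 in daf-16 worms and 204 and 233 in N2, and the 20 °C libraries 288 and 284 in pqm-1 worms, 278 and 282 in daf-16 worms and 266 and 271 in N2. The log2 fold change was -0.25 in pqm-1, -0.24 in daf-16 and -0.30 in N2. The anchor genes sdhd-1 and mev-1 fell in N2 and were not called in the other strains, and their heat effects did not differ between strains past the threshold (interaction, edgeR). sdhd-1 had 146 and 145 normalised CPM in heated pqm-1 worms, 146 and 142 in heated daf-16 worms and 138 and 147 in heated N2 worms, against 170.3 and 164 in pqm-1 worms, 154 and 174 in daf-16 worms and 168 and 177 in N2 worms at 20 °C. Mutants in mev-1, which encodes the cytochrome b subunit, are sensitive to oxidative stress. For mev-1 the levels were 86.0 to 98.7 normalised CPM in the heated libraries and 102 to 114 at 20 °C, and the log2 fold change was -0.21 in pqm-1, -0.14 in daf-16 and -0.28 in N2.

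Complex III carries electrons from ubiquinol to cytochrome c. Of its 6 genes, 2 fell in pqm-1, 1 in daf-16 and 1 in N2, and 1 rose in daf-16. Counts of 1 of 6 lie near the shares over all genes. These were 16.6% lower and 16.5% higher in daf-16, and 17.9% lower in N2, with 12.6% lower in pqm-1. The 3 ucr-2 genes, which encode the core protein 2 of the complex, differed from each other. ucr-2.2 had 132 and 121 normalised CPM in heated pqm-1 worms, 144 and 141 in heated daf-16 worms and 116 and 127 in heated N2 worms, against 176 and 174 in pqm-1 worms, 185 and 192 in daf-16 worms and 154 and 168 in N2 worms at 20 °C. The log2 fold change of ucr-2.2 was -0.47 ± 0.08 in pqm-1, -0.41 ± 0.08 in daf-16 and -0.40 ± 0.08 in N2 (SE, adjusted p 0.00113, 0.0021 and 0.0024).

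For ucr-2.1 the order was the opposite. Heated worms had 316 and 305 normalised CPM of ucr-2.1 in pqm-1 worms, 340.5 and 324 in daf-16 worms and 273 and 337 in N2, against 273 and 260.4, 268 and 265 and 253 and 265 in the same strains at 20 °C. Every heated library was above every library at 20 °C in the same strain. The log2 fold change was 0.22 ± 0.09 in pqm-1, 0.32 ± 0.09 in daf-16 and 0.24 ± 0.09 in N2 (SE, adjusted p 0.105, 0.0202 and 0.0684), and the rise in daf-16 passed the threshold. That call was lost without the daf-16 35 °C replicate 2, 20 °C replicate 2 or 20 °C replicate 3 library. With scaling to library size alone the gene rose in all 3 strains, with log2 fold changes of 0.28, 0.33 and 0.32 in pqm-1, daf-16 and N2 (adjusted p 0.0277, 0.0105 and 0.0126).

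The remaining gene, ucr-2.3, was called in no strain. For ucr-2.3, the heated libraries held 155 and 158 normalised CPM in pqm-1 worms, 158 and 161 in daf-16 worms and 157 and 161 in N2, and the 20 °C libraries 165 and 167 in pqm-1 worms, 168 and 181 in daf-16 worms and 173 and 172 in N2. Its log2 fold change was -0.08 in pqm-1, -0.13 in daf-16 and -0.12 in N2.

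Within the ucr-2 transcripts, per kb and averaged over strains, the share of ucr-2.1 was 52.3% after heat, against 43.3% at 20 °C, a difference of 8.91 percentage points. The heated libraries were at 52.2 and 52.5% in pqm-1 worms, 51.8 and 53.1% in daf-16 worms and 49.9 and 54% in N2, and the 20 °C libraries at 43.3 and 44.5%, 41.5 and 43.3%, and 43.7 and 43.8% in the same strains. The share of ucr-2.2 was 21.6% after heat, against 28.8% at 20 °C, a difference of -7.14 points, and no heated library overlapped an unheated one for either gene. Both gave an exact permutation p of 0.00926 (adjusted p 0.0116). For ucr-2.1 that p was fixed in advance. In each strain both heated libraries had more ucr-2.1, and less ucr-2.2 and ucr-2.3, than both at 20 °C. Its share then had to be higher, so the test adds nothing to those levels. For ucr-2.3 the share was 26.1% after heat, against 27.9% at 20 °C, a difference of -1.78 points (exact p 0.037). That p was above 0.05, at most 0.0926, in some of the tests that left out a library, while for ucr-2.1 the differences then stayed between 8.24 and 9.59 points and for ucr-2.2 between -7.34 and -6.93 points.

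**Figure D3:**
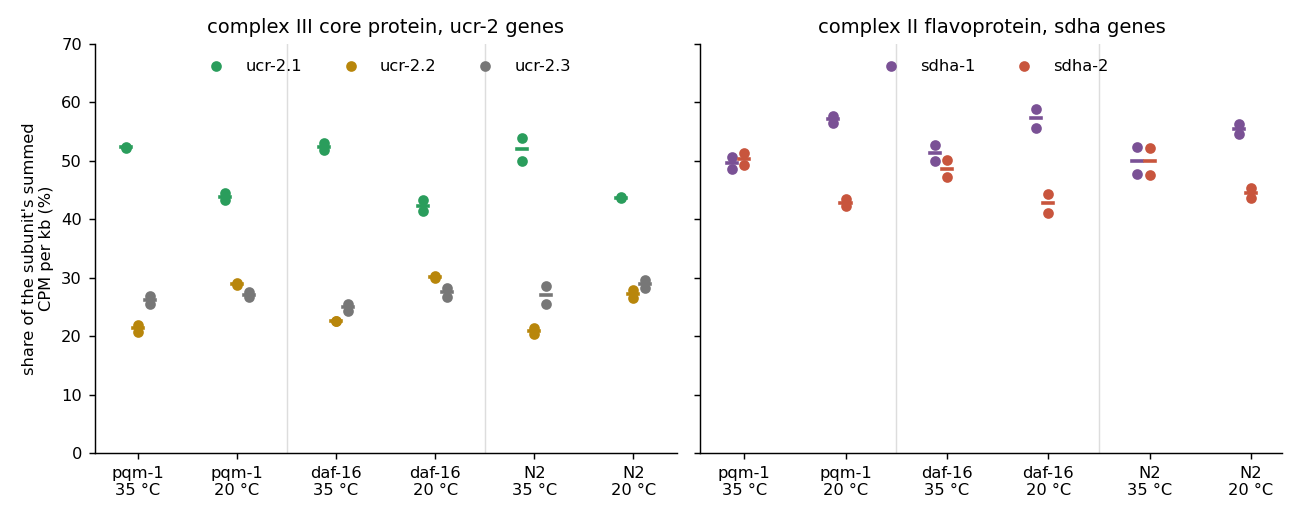
Share of each gene in the summed CPM per kb of its subunit (vertical axis, %), for the 3 ucr-2 genes of complex III (left) and the 2 sdha genes of complex II (right), by strain and temperature. Points are libraries and short lines are means of 2. In each strain ucr-2.1 takes a larger share after heat than at 20 °C, and ucr-2.2 and sdha-1 take smaller ones.

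Of the other genes of complex III, cyc-1, which encodes a cytochrome subunit, was called lower in pqm-1, with log2 fold changes of -0.23 in pqm-1, -0.20 in daf-16 and -0.20 in N2. The core protein 1 gene ucr-1 was called in no strain, with -0.20 in pqm-1, -0.18 in daf-16 and -0.19 in N2, and neither was isp-1. isp-1 had 475 and 473 normalised CPM in heated pqm-1 worms, 504 and 472 in heated daf-16 worms and 439.7 and 489 in heated N2 worms, against 547 and 538 in pqm-1 worms, 534 and 556 in daf-16 worms and 524 and 543 in N2 worms at 20 °C. The libraries of isp-1 did not overlap between temperatures in any strain, and its log2 fold change was -0.19 in pqm-1, -0.16 in daf-16 and -0.20 in N2 (adjusted p 0.0742, 0.121 and 0.0538). The counts of ucr-1 were fractional in 6 libraries.

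Cytochrome c itself is represented by cyc-2.2. Heated worms had 54.8 and 57.9 normalised CPM of cyc-2.2 in pqm-1 worms, 52.0 and 48.0 in daf-16 worms and 55.5 and 63.7 in N2, against 67.5 and 64.6, 67.1 and 73.6 and 65.7 and 69.7 in the same strains at 20 °C. The log2 fold change was -0.23 ± 0.09 in pqm-1, -0.49 ± 0.09 in daf-16 and -0.18 ± 0.09 in N2 (SE, adjusted p 0.0777, 0.00129 and 0.128), and the fall in daf-16 passed the threshold. The difference between the heat effects of daf-16 and N2 was -0.31 ± 0.13 (SE), with an unadjusted p of 0.0294 and an adjusted p of 0.291, so it did not pass the threshold.

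Complex IV, cytochrome c oxidase, is represented by 7 nuclear genes for small subunits around the mitochondrially encoded core. Of these, 4 fell in pqm-1, 4 in daf-16 and 6 in N2, and the medians of the log2 fold changes were -0.25, -0.27 and -0.34. The fall of cox-6C was the largest of the 40 genes in N2. cox-6C had 156 and 167 normalised CPM in heated pqm-1 worms, 161 and 161 in heated daf-16 worms and 142 and 169 in heated N2 worms, against 227 and 214 in pqm-1 worms, 215 and 218 in daf-16 worms and 226 and 216 in N2 worms at 20 °C. All 6 heated libraries lay below all 6 at 20 °C. The log2 fold change was -0.45 ± 0.09 in pqm-1, -0.43 ± 0.09 in daf-16 and -0.51 ± 0.09 in N2 (SE, adjusted p 0.00266, 0.00283 and 0.001), which is 26.8%, 25.6% and 29.6% lower. Leaving out libraries moved the estimate in N2 between -0.64 and -0.37.

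The gene with the highest level per kb in this complex, cox-6B, fell in all 3 strains. Heated worms had 478 and 492 normalised CPM of cox-6B in pqm-1 worms, 469 and 464 in daf-16 worms and 442 and 501 in N2, against 623 and 571, 590.0 and 637 and 635 and 607 in the same strains at 20 °C. Its log2 fold change was -0.30 in pqm-1, -0.40 in daf-16 and -0.40 in N2. For cox-5A, the heated libraries held 604 and 621 normalised CPM in pqm-1 worms, 645 and 624 in daf-16 worms and 582 and 638 in N2, and the 20 °C libraries 777 and 731 in pqm-1 worms, 771 and 811 in daf-16 worms and 814 and 794 in N2. For cox-5A the log2 fold change was -0.30 in pqm-1, -0.32 in daf-16 and -0.40 in N2. cox-7C had 254 and 268 normalised CPM in heated pqm-1 worms, 266 and 251 in heated daf-16 worms and 231 and 256 in heated N2 worms, against 327 and 293 in pqm-1 worms, 304 and 322 in daf-16 worms and 314 and 303 in N2 worms at 20 °C. The log2 fold change of cox-7C was -0.25 in pqm-1, -0.27 in daf-16 and -0.34 in N2.

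The genes cox-4 and cox-5B passed the threshold in N2, with log2 fold changes of -0.13 in pqm-1, -0.18 in daf-16 and -0.25 in N2 for cox-4 and -0.15 in pqm-1, -0.18 in daf-16 and -0.26 in N2 for cox-5B. The gene cox-6A was called in no strain (-0.12 in pqm-1, -0.15 in daf-16 and -0.18 in N2). Exons of cox-6B overlap those of nduc-2 on the same strand over 1.4% of its length.

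Complex V makes ATP. Of its 4 genes, 3 fell in pqm-1, 3 in daf-16 and all 4 in N2. atp-2 had 3031 and 2863 normalised CPM in heated pqm-1 worms, 3281 and 3182 in heated daf-16 worms and 2781 and 3006 in heated N2 worms, against 3600.0 and 3700.0 in pqm-1 worms, 3725 and 3846 in daf-16 worms and 3502 and 3614 in N2 worms at 20 °C. The log2 fold change of this beta subunit gene was -0.31 ± 0.07 in pqm-1, -0.23 ± 0.07 in daf-16 and -0.30 ± 0.07 in N2 (SE, adjusted p 0.00528, 0.0205 and 0.00497). Heated worms had 697 and 684 normalised CPM of atp-5 in pqm-1 worms, 707 and 694 in daf-16 worms and 641 and 693 in N2, against 818 and 783, 788 and 849 and 795 and 817 in the same strains at 20 °C. This gene encodes the stalk subunit d, and its log2 fold change was -0.21 in pqm-1, -0.22 in daf-16 and -0.27 in N2.

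The alpha subunit gene atp-1 passed the threshold in pqm-1 and N2, with log2 fold changes of -0.25 in pqm-1, -0.13 in daf-16 and -0.29 in N2, and the difference between the heat effects of daf-16 and N2 was 0.16 ± 0.10 (SE, adjusted p 0.508). For atp-3, the stalk subunit that gives oligomycin sensitivity, the log2 fold change was -0.20 in pqm-1, -0.20 in daf-16 and -0.25 in N2, and it passed the threshold in daf-16 and N2. The counts of atp-1 were fractional in 4 libraries.

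Of the 6 genes for assembly of complex IV, 3 fell in pqm-1, 1 in daf-16 and 3 in N2. The 1 of 6 in daf-16 lies near the 16.6% of all genes called lower in that strain. The gene called in each strain was cox-15, the haem A synthase. For cox-15, the heated libraries held 88.2 and 89.0 normalised CPM in pqm-1 worms, 89.4 and 92.4 in daf-16 worms and 85.8 and 91.3 in N2, and the 20 °C libraries 106 and 107 in pqm-1 worms, 102 and 108 in daf-16 worms and 107 and 104 in N2. Its log2 fold change was -0.26 in pqm-1, -0.21 in daf-16 and -0.25 in N2, and its counts were fractional in 7 libraries. The copper-handling gene cox-19 and the insertase gene cox-18 were called in pqm-1 and N2, with -0.42 in pqm-1, -0.20 in daf-16 and -0.45 in N2 for cox-19 and -0.29 in pqm-1, -0.10 in daf-16 and -0.30 in N2 for cox-18. The haem O synthase gene cox-10 and the copper genes cox-11 and cox-17 were not called. The level of cox-17 was low, at 11.3 to 13.9 normalised CPM in the heated libraries and 12.7 to 18.3 at 20 °C, and its interval in N2 ran from -0.76 to -0.06 on the log2 scale. Under scaling to library size alone, the estimate of cox-10 in N2 was 0.05 and that of cox-11 in pqm-1 was 0.03.

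The comparisons of each mutant with N2 ask whether the level of these transcripts differs between the strains. None of the 40 genes was called between pqm-1 and N2 after heat or at 20 °C, or between daf-16 and N2 after heat or at 20 °C, with edgeR, and DESeq2 also called 0. The counts at an unadjusted p under 0.05 were 0, 0, 4 and 4 in these comparisons. Over all genes tested, edgeR called 0.28% between pqm-1 and N2 after heat and 0.063% at 20 °C, and 1.1% between daf-16 and N2 after heat and 2.49% at 20 °C. The medians of the 40 log2 fold changes were 0.03 after heat and -0.01 at 20 °C for pqm-1 over N2, and 0.05 after heat and 0.01 at 20 °C for daf-16 over N2.

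The intervals bound these differences. In pqm-1 the 95% interval lay within ±0.5 on the log2 scale for all 40 genes after heat and 39 at 20 °C, and within ±0.25 for 32 genes at both temperatures. In daf-16 it lay within ±0.5 for 40 genes after heat and 39 at 20 °C, and within ±0.25 for 23 after heat and 32 at 20 °C. The assembly gene cox-19, at a low level, had an estimate of -0.21 (interval -0.43 to 0.02) in pqm-1 and -0.28 (-0.51 to -0.05) in daf-16 at 20 °C. The daf-16 strain had higher ucr-2.2 at both temperatures by an unadjusted p under 0.05, with log2 fold changes of 0.22 ± 0.08 after heat and 0.23 ± 0.08 at 20 °C (SE), but adjusted p was 0.188 after heat and 0.14 at 20 °C. After heat, atp-1 and atp-2 were at log2 fold changes of 0.21 and 0.16 in daf-16 over N2, and cyc-2.2 at -0.26, with adjusted p of 0.179, 0.255 and 0.181. In heated worms, atp-1 had 2926 and 2773 normalised CPM in daf-16, against 2311 and 2608 in N2.

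**Figure D4:**
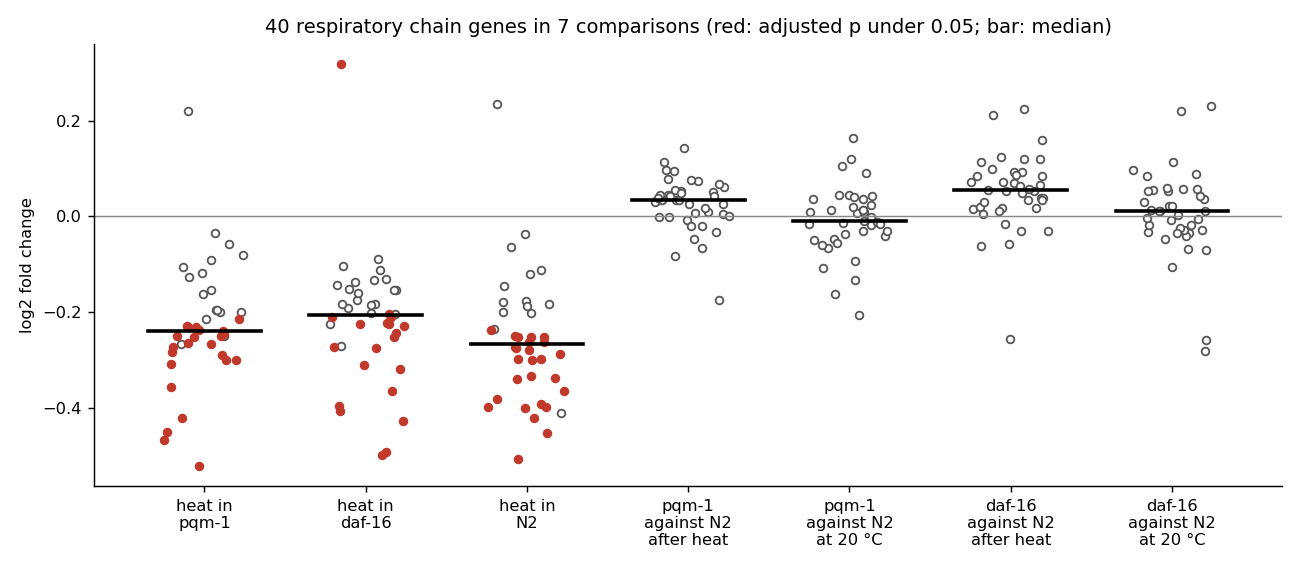
Log2 fold change (vertical axis) of the 40 genes with heat in each strain and between each mutant and N2 at each temperature (2 libraries per group). Points are genes, red points have an edgeR adjusted p under 0.05 and black bars are medians. The medians of the 3 heat comparisons lie between -0.27 and -0.21, and those of the 4 comparisons with N2 between -0.01 and 0.05.

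The heat effect itself did not differ past the threshold between strains for any of the 40 genes. The interaction test of edgeR called 0 genes between pqm-1 and N2, between daf-16 and N2 and between daf-16 and pqm-1, as did DESeq2, and it called 0% of all genes tested in each. With p unadjusted, 0, 1 and 0 of the 40 genes lay under 0.05, the 1 being cyc-2.2, against 1109, 2134 and 931 of the 14278 genes. The smallest adjusted p among the 40 genes was 0.667, 0.291 and 0.786. The medians of the differences were 0.04 for pqm-1 minus N2 and 0.06 for daf-16 minus N2 on the log2 scale, and the 95% interval lay within ±0.5 for 37 genes in each of these. It lay within ±0.25 for only 7 genes in pqm-1 minus N2 and 6 in daf-16 minus N2. For the rest the interval reached past that bound, which is about the size of the median heat effect.

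Subunits of the same complexes that carry other symbols were listed apart. Of 7 further genes of complex I, 5 fell in each strain, and they were the same 5, among them ndus-8, ndub-3, ndub-5 and ndub-7. Of these, ndus-8 had 179 and 171 normalised CPM in heated pqm-1 worms, 181 and 172 in heated daf-16 worms and 162 and 176 in heated N2 worms, against 221 and 219.8 in pqm-1 worms, 225 and 233 in daf-16 worms and 222 and 224 in N2 worms at 20 °C. All heated libraries lay below all libraries at 20 °C, and its log2 fold change was -0.34 in pqm-1, -0.38 in daf-16 and -0.40 in N2. Of 8 further genes of complex V, 4 fell in pqm-1, 6 in daf-16 and 7 in N2, and 1, mai-1, rose in each. The mai genes encode homologues of the inhibitor of ATP hydrolysis by the synthase. The log2 fold change of mai-1 was 0.58, 0.63 and 0.60 in pqm-1, daf-16 and N2, and that of mai-2 was -0.34, -0.43 and -0.51. In level, mai-1 was at 6.41 to 8.01 normalised CPM after heat, against 4.44 to 5.78 at 20 °C, and mai-2 was at 217 to 240.5, against 280.0 to 340.3.

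Among 8 further assembly factors, 3 rose and 2 fell in pqm-1, 2 rose and 2 fell in daf-16, and 1 rose and 2 fell in N2. The copper delivery gene sco-1 rose in each, with log2 fold changes of 0.54 in pqm-1, 0.50 in daf-16 and 0.39 in N2, and the insertase gene oxa-1 fell, with -0.27, -0.32 and -0.29. Of 8 genes of ubiquinone synthesis, coq-1, coq-5 and coq-8 fell in each strain (coq-1 by 0.49, 0.51 and 0.65 on the log2 scale in pqm-1, daf-16 and N2), and coq-4 rose in pqm-1 with a log2 fold change of 0.36. Of 15 genes of the tricarboxylic acid cycle, 6 fell in pqm-1, 4 in daf-16 and 8 in N2 and none was called higher, with cts-1, mdh-2, suca-1 and sucl-2 among the falls in each strain. The median log2 fold change of these 15 was -0.22, -0.15 and -0.23. Over all genes tested, 12.6%, 16.6% and 17.9% were called lower with heat in pqm-1, daf-16 and N2. The shares called higher were 12.5%, 16.5% and 16.8%. Counts of 1 or 2 in the lists of 8 lie near those shares.

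Of 66 genes of the mitochondrial ribosome, 11 fell and 1 rose in pqm-1, 27 fell and 2 rose in daf-16, and 36 fell and 1 rose in N2, with medians of -0.13, -0.18 and -0.23. The 11 of 66 in pqm-1 lay near the 12.6% of all genes called lower there. In daf-16 and N2 that share of all genes was 16.6% and 17.9%. The largest fall in each strain was that of mrps-28 (-0.69, -0.66 and -0.80), and mrpl-9 rose in each (0.36, 0.24 and 0.25). Of 62 genes of the cytosolic ribosome, 0 were called in pqm-1 (3 at an unadjusted p under 0.05), 7 rose and 1 fell in daf-16, and 1 rose and 1 fell in N2, with medians of -0.0036, 0.03 and -0.08. Of 17 glycolytic genes, 8 fell in pqm-1, 6 in daf-16 and 10 in N2, where 1, pfk-1.2, rose. The pyruvate kinase gene pyk-2 had the largest fall in each (-0.83, -0.89 and -0.84). Among 9 genes of mitochondrial chaperones and the unfolded protein response of mitochondria, the chaperonin gene hsp-60 and the regulator atfs-1 fell in each strain and the regulator dve-1 rose in each. The log2 fold change of hsp-60 was -0.32, -0.22 and -0.29, and that of dve-1 was 0.49, 0.68 and 0.93, in pqm-1, daf-16 and N2. Of 3 adenine nucleotide carriers, ant-1.1 fell (-0.23) and ant-1.4 rose (0.53) in N2, and 0 were called in pqm-1 and daf-16 (1 at an unadjusted p under 0.05 in each).

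**Figure D5:**
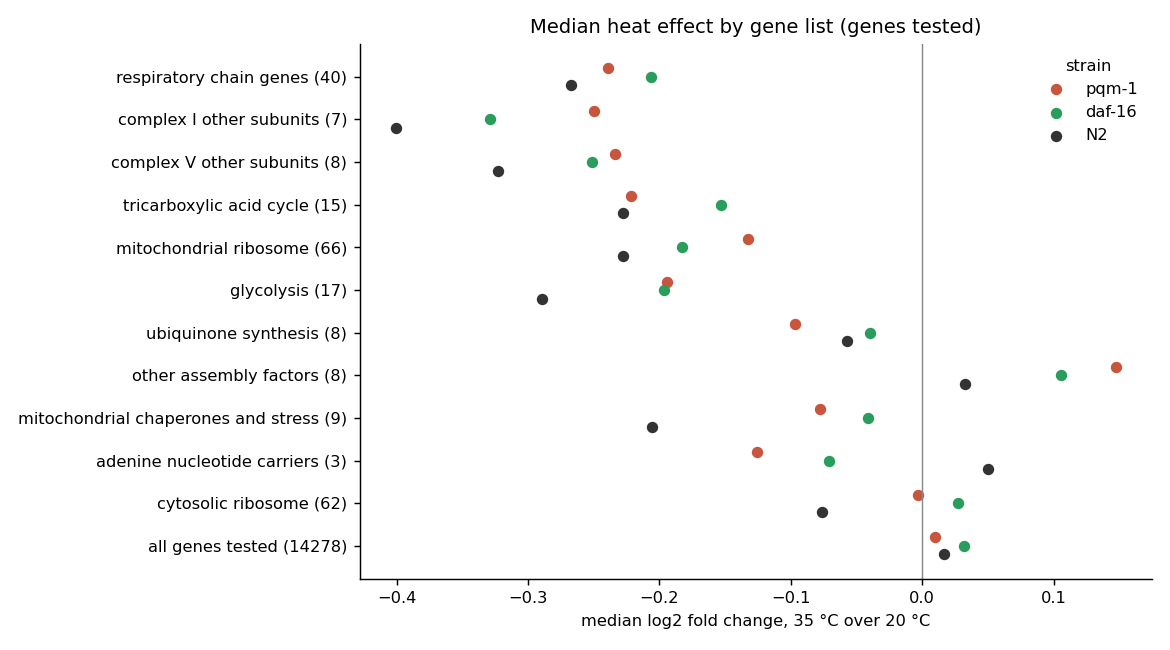
Median log2 fold change with heat (horizontal axis) of the 40 respiratory chain genes and of the other gene lists, by strain, with the number of genes tested in brackets. The respiratory chain median lies between -0.27 and -0.21, and the cytosolic ribosome median between -0.08 and 0.03.

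Some markers of tissues were called with heat as well. Over all genes tested, 12.6% to 17.9% were called lower and 12.5% to 16.8% higher, depending on the strain. Counts of 0 or 1 in lists of 5 or 6 markers lie near those shares. Of 6 intestinal markers, 3 fell in each strain, and the summed level of the 6 was 6920 to 7481 normalised CPM in heated pqm-1 worms, 7727 to 10859 in heated daf-16 worms and 7528 to 7701 in heated N2 worms, against 11966 to 14680 in pqm-1, 12757 to 13948 in daf-16 and 13417 to 17725 in N2 worms at 20 °C. The genes vit-2 and vit-5 made up most of that sum. Of the others, act-5 was at 495 to 763 after heat, against 1221 to 1380 at 20 °C. The levels of ifb-2 overlapped, at 379 to 448 after heat and 372.5 to 440 at 20 °C, and elt-2 and ges-1 were at 53.7 or less in every library. Of 6 oocyte markers, 3 fell in pqm-1, 1 in daf-16 and 6 in N2, with sums of 1314 to 1471, 1036 to 1677 and 1172 to 1281 after heat, against 1956 to 2018, 1474 to 1763 and 2102 to 2619 at 20 °C. Of 5 sperm markers, 3 fell in pqm-1, 4 in daf-16 and 3 in N2, with sums of 413 to 530.4 after heat, against 709 to 807 at 20 °C. Of 6 germline markers, 2 fell in pqm-1, 0 in daf-16 and 1 in N2. Of 5 muscle markers, 0 were called in pqm-1, 2 rose in daf-16 and 3 in N2, with sums of 9405 to 10728 after heat, against 7129 to 9056 at 20 °C. Of 5 neuronal markers, unc-64 and egl-3 rose in each strain, and of 5 hypodermal markers 0 were called in pqm-1, 1 rose in daf-16 and 2 rose and 1 fell in N2. The hypodermal sums were nonetheless lower after heat, at 1896 to 2191, against 2320 to 2795 at 20 °C. The gene col-19 made up most of each sum. No marker tested was at 0 in any library. The part of these markers in the fall of the respiratory chain transcripts was not tested.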

How the data were processed

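Counts and lengths come from 1 deposited table of 50755 RefSeq transcripts and 18 value columns. The counts deposited by the authors are estimated counts, and 13.3% of the values above 0 are fractional. The first value column holds other values, transcript lengths in bases, in the deposited table under a sample's name. The aligner, counter and genome build are not given in the sources used here, so no coordinates are printed. Names came from the RefSeq annotation of WBcel235, matched for 45910 rows. The 4845 unmatched rows held 23.4 to 24.3% of each library's total and were left out.

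For each gene the transcript with the largest mean was kept and its counts were rounded. The 12 libraries named replicate 2 and 3 belong to their labelled group whether or not the header is displaced by 1 column, so they were used, and 5 replicate 1 columns were not. The quasi-likelihood test of edgeR 4.0.16 (R 4.3.3) was applied with TMM factors, filterByExpr and 6 groups of 2 libraries (residual degrees of freedom 6), with Benjamini-Hochberg adjustment over 14278 genes in each of 10 comparisons. The fit was also run on counts simulated from its own means and dispersions, which cannot show that the model suits these libraries. Shares of paralogous genes were compared with an exact permutation test, which was not among the planned tests. Alternatives were DESeq2 1.42.0, other scalings, filters and transcripts, the compared groups alone, a replicate block and leaving out each library. Figures were drawn with matplotlib 3.10.9.

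The 40 genes and the other lists were chosen with earlier results of these data known. Every library's value is given for members called with heat in all 3 strains, for the largest called rise and fall of each comparison, for the highest member per kb of each complex and for paralogous members. In other lists, genes were named where called. The values of some genes in these counts are not reported here. Counts of overlapping genes are uncertain, since the table gives no strand. Totals of 18650312 to 33399358 counts gave at least 206 counts of every member in each library. With 2 libraries per group, the edgeR p-values rest on a spread pooled over the 6 groups and moderated across genes. They speak for these samples only.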

Additional observations from a re-analysis of the deposited data

Results flagged for a closer look

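The gene nuo-5, for the large iron-sulphur subunit of complex I, had both daf-16 libraries above both N2 libraries after heat (384.8 and 390.7, against 372.7 and 384.6 normalised CPM) and both below them at 20 °C (437 and 438, against 444 and 448). The difference between these contrasts, the heat effect in daf-16 minus that in N2, was 0.062 on the log2 scale. The opposite order of the libraries, looked for in all 40 genes, singled it out, and the edgeR interaction did not pass the threshold. Such orders were common with 2 libraries per group. Both daf-16 libraries lay above both N2 libraries for 21.9% of all genes after heat, and below them for 25.4% at 20 °C.

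Columns named replicate 1 were not used in any comparison, and 2 of them carry a heat signal under a 20 °C name. The transcript of hsp-16.2 was at 324.3 CPM in the column named pqm-1 20 °C replicate 1 and at 208.7 CPM in that named N2 20 °C replicate 1, against at most 0.42 CPM in the 20 °C libraries used. The 40 respiratory chain genes in these columns had a median log2 difference of -0.16 and -0.20 from the used libraries of the same name. In the columns named 35 °C replicate 1 that median was 0.24 for pqm-1, 0.14 for daf-16 and 0.16 for N2. In all 5 columns named replicate 1, hsp-16.2 was at the level of the other temperature. Names standing 1 column too early would give that order, but the files do not state such a displacement.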

How the results depend on the processing

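Main counts of the 40 genes called with heat were 22 in pqm-1, 20 in daf-16 and 26 in N2. With the compared groups alone they were 8 in daf-16 and 15 in N2, while in pqm-1 29 genes were called lower. They were 14 in pqm-1 with library size alone. With all count columns by their header names, replicate 1 included, they were 0 in each strain. The groups by header names mix columns with and without the hsp-16.2 signal of heat. Over the fits that left out 1 library each, the counts ran from 5 to 26 in pqm-1, from 8 to 23 in daf-16 and from 10 to 29 in N2. The counts stayed within 1.5 times the main ones with DESeq2, relative log expression factors, a mean count of at least 10, no filter and the longest transcript. In the other 7 comparisons 0 of the 40 genes were called under each of these settings. Of 68 calls, none changed sign under any setting. The median heat effect ran from -0.26 to -0.18 in pqm-1, from -0.24 to -0.18 in daf-16 and from -0.33 to -0.18 in N2, leaving aside the header names, which gave -0.07, -0.13 and -0.13. The replicate numbers did not pair the libraries (correlations of replicate differences between -0.335 and 0.205). With a replicate block the counts were 18 in pqm-1, 17 in daf-16 and 26 in N2, and crossing the numbers in heated pqm-1, an alternative chosen after seeing the data together with the fits that left out a library from the paralogue shares, gave 19. The cause of these shifts was not tested. Counts at the lowest levels, as for cox-17, limit precision.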
